A study of Mus musculus with 6 samples.

Results

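The genes described here are Srebf2, Scap, Insig1, Insig2, Stard4 and Mylip, which encode the transcription factor SREBP2, the proteins that sense sterol and hold SREBP2 back, a sterol carrier, and a ligase that removes the LDL receptor. They were chosen by name for these roles, with earlier results of these data known, as were the gene lists used below. Their 6 rows were read from the 39179 genes of each count table. Expression was measured by RNA sequencing of liver from C57BL/6J mice. All mice were given a high-fat diet with 60% of energy as fat for 21 weeks, starting at 5 weeks of age. By haematoxylin and eosin staining of the liver they were then classed as nonalcoholic steatohepatitis (NASH, 3 libraries), in which fat storage is joined by inflammation and cell injury, or as isolated steatosis (3 libraries), in which it is not. Both groups are thus animals on the same high-fat diet, and no lean liver was analysed here. The labels imply, but do not state, that each library is a separate mouse, and p-values measure the spread between these libraries.

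SREBP2 is made as a precursor in the membrane of the endoplasmic reticulum, bound to the escort protein SCAP. When sterol is plentiful, SCAP is held there by the INSIG proteins. When sterol falls, INSIG lets go, SCAP carries SREBP2 to the Golgi, and proteases there free the part that enters the nucleus and switches on genes of cholesterol synthesis and LDL uptake. INSIG1 is itself a product of that programme, and in the liver INSIG2 is known to follow other signals. STARD4 moves cholesterol between membranes inside the cell. MYLIP, also called IDOL, can be induced by the sterol-activated receptor LXR and tags the LDL receptor for breakdown. Messenger RNA shows none of the processing of SREBP2 directly.

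RefSeq promoter windows (GRCm38.p6), which run from 250 bases before to 50 bases after a transcription start, were found for 5 of the 6 members. The windows of Insig1, the member that changed most, of its paralog Insig2 and of Srebf2 are shown. Capitals mark matches, on either strand and as printed in the gene's direction, to the E-box CACGTG, the NF-Y box CCAAT, the Sp1 box GGGCGG or a short sterol element TCACCCCA.
Insig1, chr5:28071162-28071461, plus strand: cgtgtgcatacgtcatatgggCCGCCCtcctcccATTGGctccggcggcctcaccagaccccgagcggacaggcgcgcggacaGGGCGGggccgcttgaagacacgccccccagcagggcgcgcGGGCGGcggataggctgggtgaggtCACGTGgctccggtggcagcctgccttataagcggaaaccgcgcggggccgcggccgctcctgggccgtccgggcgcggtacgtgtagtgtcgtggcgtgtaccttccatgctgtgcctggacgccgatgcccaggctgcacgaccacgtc
Insig2, chr1:121332540-121332839, minus strand: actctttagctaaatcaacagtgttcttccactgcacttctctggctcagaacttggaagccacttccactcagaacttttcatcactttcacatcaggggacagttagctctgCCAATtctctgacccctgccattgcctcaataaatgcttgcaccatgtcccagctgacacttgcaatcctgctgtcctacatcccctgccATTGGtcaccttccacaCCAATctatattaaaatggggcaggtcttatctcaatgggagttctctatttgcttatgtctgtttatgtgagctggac
Srebf2, chr15:82147019-82147318, plus strand: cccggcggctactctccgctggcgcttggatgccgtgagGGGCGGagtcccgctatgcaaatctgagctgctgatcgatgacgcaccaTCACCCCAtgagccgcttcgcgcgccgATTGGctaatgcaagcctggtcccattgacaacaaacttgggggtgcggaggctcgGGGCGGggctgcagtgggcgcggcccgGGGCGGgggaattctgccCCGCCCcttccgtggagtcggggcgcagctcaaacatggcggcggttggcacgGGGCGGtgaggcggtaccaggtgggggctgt
The longer sterol element TCACNCCAC matched none of the 8 member windows, against 1.24% of all 32851 windows. The shorter letters, searched after the windows had been read, matched Srebf2 at position -162 from its start, against 1.56% of all windows. An E-box was present in Insig1, at position -101, and in both overlapping windows of Scap, against 7.15% of windows. The Sp1 box was found 3 times in the Insig1 window and 5 times in that of Srebf2, with 35.7% of all windows holding at least 1. The NF-Y box occurred 3 times in the Insig2 window shown and 3 times in that of Mylip, against 37.4% of windows. It was also present in the Insig1 and Srebf2 windows, and absent from the Insig2 windows not shown. The Sp1 box was also present in those Insig2 windows and in the windows of Scap and Mylip. RefSeq gives Insig2 3 separate starts, and the counts, which are per gene, add them together. A match is a match of letters and was not tested as a binding site.

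The libraries held 13909238 to 17577354 gene counts in NASH and 14883514 to 18002095 in steatosis. Mitochondrially encoded genes took 62.0% to 83.9% of counts in NASH and 68.3% to 77.9% in steatosis. Loci with rRNA-like sequence took 22.3% of NASH 3 and 8.96% of steatosis 2, and at most 1.06% of the other 4 libraries. Outside both kinds of gene, 2185922 to 2719869 counts were left in NASH, against 3378730 to 5149189 in steatosis. This depth was thus lower in every NASH library, and its part in the differences was not tested. Levels are given as CPM, counts scaled to the size of the library after TMM adjustment. All 8 hepatocyte markers, which define the labelled tissue, passed the filter on low counts, and their summed level was 9375 to 10637 CPM in NASH and 12488 to 15494 CPM in steatosis. The 8 markers of sinusoidal endothelium summed to 99.3 to 139 CPM in NASH and 69.6 to 90.5 CPM in steatosis, and the 9 of stellate cells to 87.3 to 110 CPM in NASH and 121 to 125 CPM in steatosis. Kupffer cell markers overlapped between the groups, at 34.96 to 75.9 CPM in NASH and 42.0 to 49.1 CPM in steatosis. Of the 7 recruited macrophage markers 4 passed the filter, with sums of 7.92 to 16.9 CPM in NASH and 9.24 to 11.8 CPM in steatosis. Cholangiocyte and lymphocyte markers summed to under 4 CPM in every library. The 3 adipocyte markers (Adipoq, Lep and Plin1) were at 0 in all libraries, and the 4 pancreatic markers summed to at most 0.363 CPM. By edgeR's test 1 of the markers, Dcn of stellate cells, passed and was lower in NASH. In bulk liver, fewer cells of a type and less RNA per cell cannot be told apart.

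The comparison of NASH with steatosis asks whether the control of the SREBP2 pathway differed between livers of the 2 classes. Insig1 was 3.37 times as high in NASH, and it was the member that passed the test. Stard4 averaged 2.02-fold and Srebf2 1.49-fold the steatosis level without passing. Scap was at nearly the same level in both groups. Insig2 and Mylip had fold changes close to 1 with wide intervals. In edgeR's quasi-likelihood test, with p adjusted by Benjamini-Hochberg over 11375 genes, 1 of the 6 members was called higher at an adjusted p under 0.05, against 1.49% of all tested genes. None was called lower, against 3.33% of all genes, and at an unadjusted p under 0.05 there were 3 higher and 0 lower, against 10.2% and 12.9% of all genes. DESeq2 called 2 members higher, Insig1 and Stard4, and limma-voom 1, and neither called any lower. Over all genes 30.8% of calls were higher in NASH, and 44.6% when libraries were scaled without TMM to their counts outside mitochondrial and rRNA-like genes. In CPM after TMM the groups did not overlap for 2 members, Insig1 and Srebf2, against 29.3% of all tested genes. For Srebf2 this depended on the scaling, as given below. All 6 members passed the filter.

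**Figure D1:**
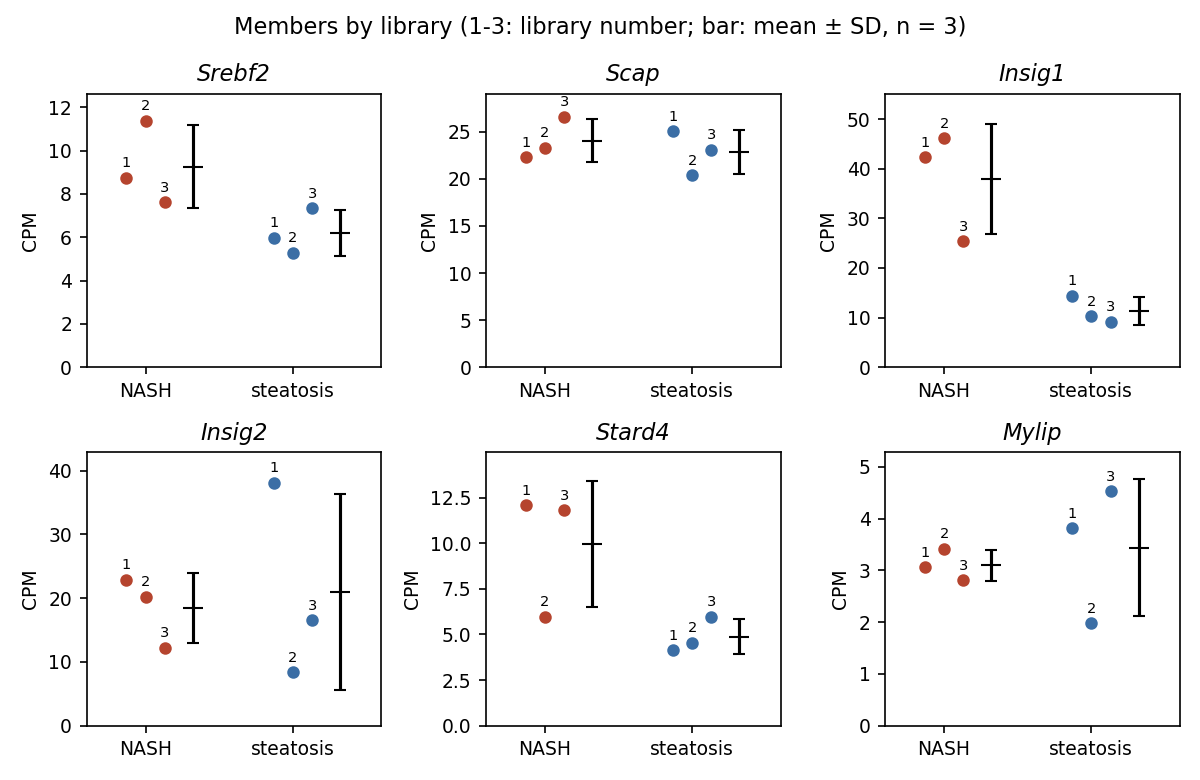
CPM of each member in each library, NASH left of steatosis, with the library number over each point and the mean ± SD beside it (n = 3). For Insig1 the NASH points, at 25.4 to 46.2 CPM, lie above the steatosis points, at 9.20 to 14.4 CPM, whereas for Scap, Insig2, Stard4 and Mylip the groups overlap.

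Srebf2 encodes SREBP2 itself, at chr15:82147181-82205379 on the plus strand, and carries the microRNA gene Mir33 in an intron. It had 126, 170 and 84 counts in NASH 1, 2 and 3, against 97, 88 and 198 counts in steatosis 1, 2 and 3. In CPM these were 8.75, 11.4 and 7.63 in NASH, against 5.98, 5.27 and 7.35 in steatosis. In CPM every NASH value lay above every steatosis value, with NASH 3 and steatosis 3 closest together. Outside mitochondrial and rRNA-like genes, NASH 3 held 2185922 counts and steatosis 3 held 5149189. Scaled to these counts without TMM, the Srebf2 levels of NASH 3 and steatosis 3 were about equal, and the groups were not separated. The log2 fold change was not smaller under that scaling, at 0.68 (adjusted p = 0.14 by edgeR) against 0.58 with TMM. The means were 9.25 ± 1.93 CPM in NASH and 6.20 ± 1.05 CPM in steatosis (SD, n = 3 each). The log2 fold change was 0.58 (SE 0.22, 95% interval 0.09 to 1.06, adjusted p = 0.151 by edgeR), and it did not pass. With 84 to 198 counts a library this gene was measured at low depth. Its sister gene Srebf1, which encodes the SREBP of fatty acid synthesis, had 90.8, 89.7 and 46.8 CPM in NASH, against 59.0, 52.0 and 17.5 CPM in steatosis. Those groups overlapped, at a log2 fold change of 0.82 (SE 0.42, adjusted p = 0.269 by edgeR). Exons of Srebf1 overlap those of Rai1 on the opposite strand.

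Scap, the sterol-sensing escort, lies at chr9:110333288-110384950 on the plus strand. It had 22.3, 23.3 and 26.6 CPM in NASH, against 25.1, 20.4 and 23.1 CPM in steatosis. The values of the groups were intermixed, and Scap varied least of the members between libraries relative to its mean, in both groups. The log2 fold change was 0.07 (SE 0.18, 95% interval -0.33 to 0.48, adjusted p = 0.854 by edgeR), so the interval left out a doubling or a halving of Scap. It rested on 293 to 348 counts in NASH and 340 to 623 in steatosis. An exon of Scap overlaps 5830462I19Rik on the opposite strand, and reads of that pair were not separated.

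Insig1, which retains SCAP in the endoplasmic reticulum, lies at chr5:28071363-28078662 on the plus strand. It had 610, 690 and 280 counts in NASH, against 234, 172 and 248 counts in steatosis. Scaled to the libraries these were 42.4, 46.2 and 25.4 CPM in NASH, against 14.4, 10.3 and 9.20 CPM in steatosis. NASH 3 was the lowest of its group and was still above the highest steatosis library, steatosis 1. Insig1 averaged 38.0 ± 11.1 CPM in NASH and 11.3 ± 2.75 CPM in steatosis (SD, n = 3 each). It rose by 1.75 on the log2 scale (SE 0.27, 95% interval 1.15 to 2.36, adjusted p = 0.0104 by edgeR), and ranked 67 of 11375 genes by p. Without steatosis 2 the adjusted p was 0.0598 at a log2 fold change of 1.69, and in the 4 libraries with few rRNA-like reads it was 0.0539 at 1.91. Summed hepatocyte and stellate cell markers were lower and summed endothelial markers higher in NASH, as given above. No hepatocyte or endothelial marker was called by itself. The part of cell types in the Insig1 difference was not tested.

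Insig2, the paralog with the same retaining role, lies at chr1:121304353-121332589 on the minus strand. It had 22.9, 20.2 and 12.3 CPM in NASH, against 38.1, 8.39 and 16.5 CPM in steatosis. The steatosis libraries spanned the whole NASH range, with steatosis 1 the highest and steatosis 2 the lowest of all 6. The means were 18.5 ± 5.55 CPM in NASH and 21.0 ± 15.4 CPM in steatosis (SD, n = 3 each). The log2 fold change was -0.18 with an SE of 0.45 (95% interval -1.18 to 0.82, adjusted p = 0.856 by edgeR), an interval that includes a halving in NASH. Without steatosis 1 the log2 fold change was 0.58 (adjusted p = 0.43 by edgeR).

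**Figure D2:**
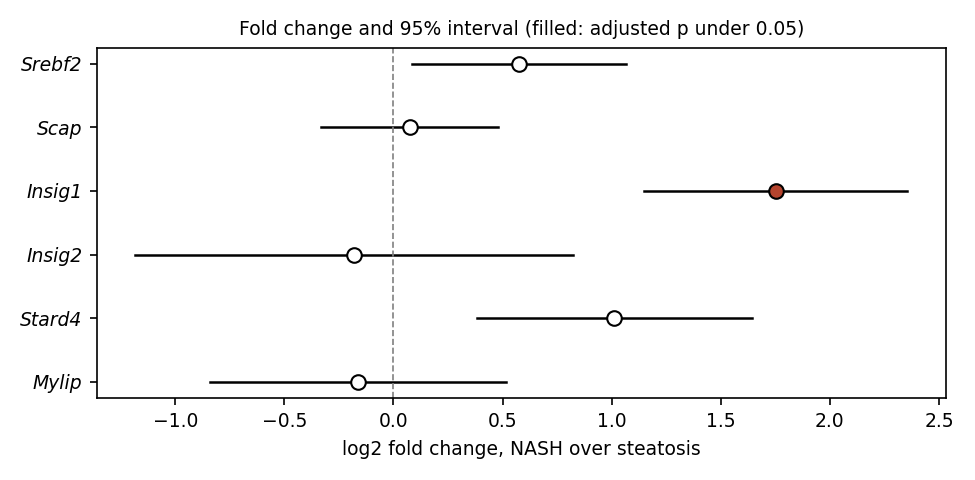
Log2 fold change of each member, NASH over steatosis, with its 95% interval from edgeR's fit, filled where the adjusted p was under 0.05. Insig1, at 1.75, is the filled point, and the intervals of Srebf2 and Stard4 lie above 0 although neither passed after adjustment over all genes.

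The balance of the paralogs was compared within each library, which removes the scaling between libraries. Per kb of exon, Insig1 had 2.08, 2.57 and 2.33 times the counts of Insig2 in NASH, against 0.424, 1.38 and 0.626 times in steatosis. Insig1 was thus the more abundant transcript in all 3 NASH libraries and in steatosis 2, and the less abundant in steatosis 1 and 3. The log2 ratio averaged 1.21 ± 0.15 in NASH and -0.48 ± 0.87 in steatosis (SD, n = 3 each). The difference of 1.69 gave p = 0.1 by a two-sided exact permutation test, the smallest that 3 libraries against 3 allow. Both Insig transcripts together stood at 6.78, 6.63 and 3.29 times the counts of Scap per kb in NASH, against 4.64, 2.10 and 2.49 times in steatosis. There the groups overlapped, since NASH 3 lay below steatosis 1, and the difference of 0.87 in the log2 ratio had an exact permutation p = 0.2.

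**Figure D3:**
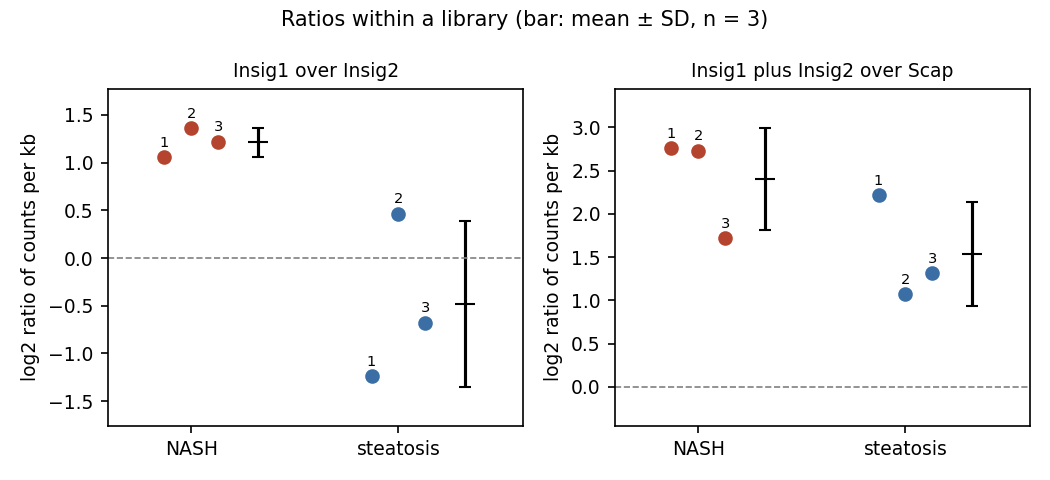
Log2 ratio of counts per kb of exon within each library, for Insig1 over Insig2 (left) and both Insig genes over Scap (right), with the mean ± SD (n = 3). In the left panel the NASH libraries sit close together at 1.05 to 1.36, above steatosis libraries spread over -1.24 to 0.46.

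Stard4, the intracellular cholesterol carrier, is at chr18:33199355-33213862 on the minus strand. It had 174, 89 and 130 counts in NASH, against 67, 76 and 161 counts in steatosis. In CPM these were 12.1, 5.96 and 11.8 in NASH, against 4.13, 4.55 and 5.97 in steatosis. NASH 1 and NASH 3 lay at about the same level and above every steatosis library, whereas NASH 2 was level with steatosis 3. The means were 9.95 ± 3.46 CPM in NASH and 4.89 ± 0.97 CPM in steatosis (SD, n = 3 each). The log2 fold change was 1.01 (SE 0.28, 95% interval 0.38 to 1.64), and the edgeR adjusted p = 0.0693 missed the threshold. The call differed with the test, the filter and NASH 2. DESeq2 gave an adjusted p of 0.0263, limma-voom 0.0956, edgeR with no filter on low counts 0.00203, and edgeR without NASH 2 gave 0.0269 at a log2 fold change of 1.30.

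Mylip, the ligase for the LDL receptor, is at chr13:45389742-45412022 on the plus strand. It was the least abundant member in CPM, with 44, 51 and 31 counts in NASH, against 62, 33 and 122 counts in steatosis. In CPM these were 3.06, 3.42 and 2.81 in NASH, against 3.82, 1.98 and 4.53 in steatosis. The NASH libraries fell within the span of the steatosis libraries. The log2 fold change was -0.16 (SE 0.31, 95% interval -0.84 to 0.51, adjusted p = 0.797 by edgeR). Counting error alone came to 17.96% of the value in NASH 3 and 17.4% in steatosis 2, and the spread between libraries was 3.10 ± 0.30 CPM in NASH and 3.44 ± 1.32 CPM in steatosis (SD, n = 3 each).

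Levels can be set against each other only per length of exon, as CPM per kb. In NASH the order was Insig1 at 12.3 ± 3.58, Insig2 at 5.32 ± 1.597, Scap at 3.23 ± 0.30, Stard4 at 1.78 ± 0.62, Srebf2 at 1.29 ± 0.27 and Mylip at 0.957 ± 0.093 CPM per kb (SD, n = 3). Insig2 overlapped Scap there, and Stard4 overlapped Srebf2, while the other neighbours did not overlap. In steatosis it was Insig2 at 6.05 ± 4.43, Insig1 at 3.66 ± 0.89, Scap at 3.07 ± 0.32, Mylip at 1.06 ± 0.41, Stard4 at 0.875 ± 0.173 and Srebf2 at 0.863 ± 0.147 CPM per kb (SD, n = 3). Of the steatosis neighbours Scap and Mylip were the pair that did not overlap. The Srebf2 transcript was thus among the least abundant members per length in both groups, and the transcripts of Insig1, Insig2 and Scap were the 3 most abundant.

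**Figure D4:**
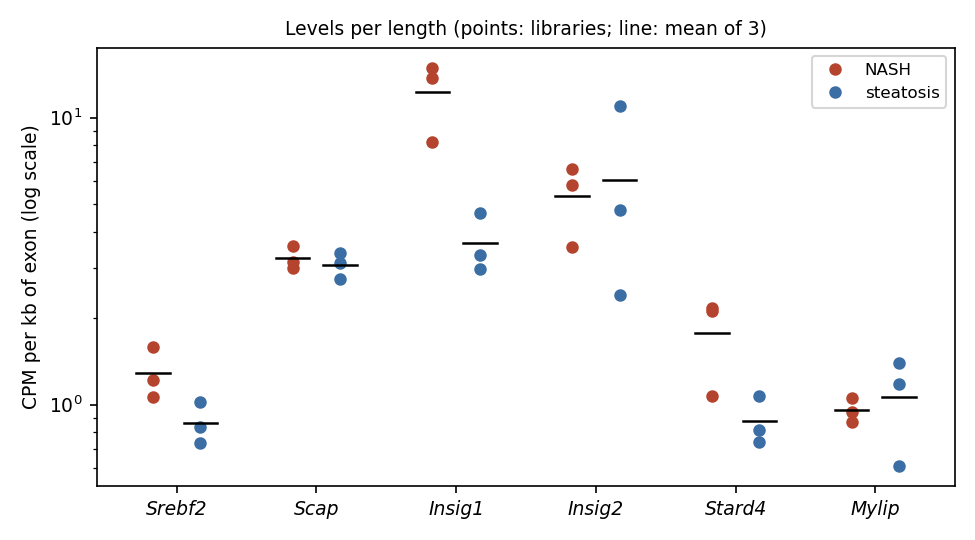
Level of each member per kb of exon on a log scale, NASH left of steatosis, with 1 point per library and a line at the mean of 3. Insig1 in NASH, at 8.22 to 14.9 CPM per kb, stands above every other member in that group, and in steatosis Insig1, Insig2 and Scap overlap.

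Of the 19 listed enzymes of cholesterol synthesis that SREBP2 controls, 8 rose and 0 fell by edgeR's quasi-likelihood test with adjusted p under 0.05, against 1.49% and 3.33% of all tested genes. At an unadjusted p under 0.05 there were 11 higher and 0 lower, against 10.2% and 12.9% of all genes. Their median log2 fold change was 0.97, against 0.01 over all tested genes. DESeq2 called 9 and limma-voom 8, all higher. Without steatosis 2 the count was 5, and in the 4 libraries with few rRNA-like reads it was 3. Nsdhl, Fdps, Sqle, Dhcr7 and Lss, the lanosterol synthase, stayed called in all 6 fits with 1 library left out. Sc5d lost its call in all 6, Hmgcs1 in 5 and Mvd in 2 of them. The 4 with the smallest p were Nsdhl and Dhcr7, of the sterol steps after squalene, Fdps, of the mevalonate pathway, and Sqle, the squalene epoxidase. Nsdhl had 20.3, 13.3 and 21.7 CPM in NASH, against 3.39, 2.10 and 3.26 CPM in steatosis, and Dhcr7 15.2, 15.3 and 14.4 CPM in NASH, against 5.85, 4.20 and 4.19 CPM in steatosis. Sqle stood at 3.82, 2.28 and 4.18 CPM in NASH, against 0.370, 0.420 and 0.482 CPM in steatosis. Its counts were 55, 34 and 46 in NASH, against 6, 7 and 13 in steatosis, which is near the floor. Sqle thus passed the filter on low counts only through its NASH libraries, and the 8 calls include it. Fdps, whose exons overlap a predicted gene on the same strand, had 16.7, 7.63 and 7.26 CPM in NASH, against 0.862, 1.14 and 0.816 CPM in steatosis. The log2 fold changes were 2.65 (SE 0.27) for Nsdhl, 1.66 (SE 0.20) for Dhcr7, 2.96 (SE 0.35) for Sqle and 3.50 (SE 0.37) for Fdps, with edgeR adjusted p of 0.00275 to 0.00379. None of these 4 overlapped between the groups, which adds little because they were picked by smallest p. Of all tested genes, 29.3% did not overlap. Within NASH their order differed, as Nsdhl and Sqle were lowest in NASH 2, like Stard4, whereas Insig1 and Srebf2 were highest there.

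The proteins that act around SREBP2 were collected in 5 lists of 74 genes, of which 67 passed the filter on low counts. Among these 2 rose and 0 fell by edgeR's quasi-likelihood test, which is 2.99% and 0% of them, against 1.49% and 3.33% of all tested genes. At an unadjusted p under 0.05 there were 9 higher (13.4%) and 6 lower (8.96%), near the 10.2% and 12.9% of all genes, and the median log2 fold change was -0.02. DESeq2 called 2 higher and 1 lower, and limma-voom 2 higher and 0 lower.

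For activation and exit from the endoplasmic reticulum, which covers the Golgi proteases and the COPII coat that carries SCAP, 0 of 13 tested genes passed, where the shares of all genes (1.49% higher and 3.33% lower) would also give few calls. At an unadjusted p under 0.05 there were 1 higher and 1 lower (7.69% each, against 10.2% and 12.9% of all genes), and the median log2 fold change was 0.17. Sar1b, a COPII GTPase, had 19.7, 9.38 and 14.8 CPM in NASH, against 40.7, 26.6 and 24.2 CPM in steatosis. All 3 NASH values lay below the steatosis values, at a log2 fold change of -1.06 (SE 0.29, adjusted p = 0.0685 by edgeR). DESeq2 called this gene lower. The coat subunit Sec31a had a log2 fold change of 0.48 (SE 0.22, adjusted p = 0.215 by edgeR). The Golgi protease genes Mbtps1 and Mbtps2, of site 1 and site 2 cleavage, had log2 fold changes of 0.10 (SE 0.17) and 0.21 (SE 0.49).

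For the ubiquitin system that removes INSIG1 and sterol-regulated enzymes, 0 of 14 passed, against the same 1.49% and 3.33% of all genes. Before adjustment, 0 were higher and 1 lower at p under 0.05 (7.14%, against 12.9% of all genes), and the median log2 fold change was -0.02. DESeq2 and limma-voom called 0. The deubiquitinase Usp20 had a log2 fold change of -0.65 (SE 0.28, adjusted p = 0.196 by edgeR) and Aup1, which recruits degradation enzymes to the membrane, one of 0.32 (SE 0.19, adjusted p = 0.344 by edgeR).

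For sterol transfer inside the cell, 1 of 11 tested genes rose and 0 fell (9.09% and 0%, against 1.49% and 3.33% of all genes). At an unadjusted p under 0.05 there were 4 higher and 2 lower (36.4% and 18.2%, against 10.2% and 12.9%), and the median log2 fold change was -0.09. Gramd1c, an Aster protein that moves cholesterol from the plasma membrane to the endoplasmic reticulum, had 42.4, 41.7 and 46.1 CPM in NASH, against 19.2, 19.4 and 25.7 CPM in steatosis. It rose by 1.02 on the log2 scale (SE 0.20, adjusted p = 0.0232 by edgeR). That call was lost in 5 of the 6 fits with 1 library left out, holding without steatosis 3, with adjusted p between 0.0237 and 0.115. Its relative Gramd1a had a log2 fold change of 0.60 (SE 0.20, adjusted p = 0.111 by edgeR), and the START protein Stard5, a relative of Stard4, one of -0.66 (SE 0.24, adjusted p = 0.133 by edgeR).

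For lipoprotein uptake and the turnover of its receptors, 0 of 17 tested genes passed, against 1.49% higher and 3.33% lower among all genes. At an unadjusted p under 0.05 there were 2 higher and 2 lower (11.8% each, near the 10.2% and 12.9% of all genes), and the median log2 fold change was -0.10. DESeq2 and limma-voom called 0. The VLDL receptor gene Vldlr had a log2 fold change of -1.17 (SE 0.41, adjusted p = 0.125 by edgeR) on 58 counts in NASH and 178 in steatosis, and Ccdc93, a part of the complex that recycles receptors from endosomes, one of 0.87 (SE 0.34, adjusted p = 0.157 by edgeR).

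Mylip can be induced by LXR, and whether it is in these livers was not tested. Among the other LXR targets and partners 1 of 12 tested genes rose and 0 fell (8.33% and 0%, against 1.49% and 3.33% of all genes). Before adjustment, 2 were higher and 0 lower at p under 0.05 (16.7% and 0%, against 10.2% and 12.9%), and the median log2 fold change was -0.12. The desaturase gene Scd1, which SREBP1 also controls, had 635, 546 and 550 CPM in NASH, against 310, 153 and 181 CPM in steatosis. Its rise of 1.43 on the log2 scale (SE 0.30, adjusted p = 0.0288 by edgeR) was lost in 5 of the 6 fits with 1 library left out, holding without steatosis 1, with adjusted p between 0.0243 and 0.127. The sterol exporters Abca1, Abcg5 and Abcg8 had log2 fold changes of -0.25 (SE 0.31), 0.04 (SE 0.31) and -0.37 (SE 0.37). Nr1h3, which encodes LXRalpha, had a log2 fold change of -0.01 (SE 0.22). Pltp, the other gene higher before adjustment, had one of 0.66 (SE 0.24, adjusted p = 0.137 by edgeR). Abcg1 stood at -0.60 (SE 0.44), Smpdl3a at -0.59 (SE 0.28) and Lpcat3 at -0.54 (SE 0.41), none of them called.

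**Figure D5:**
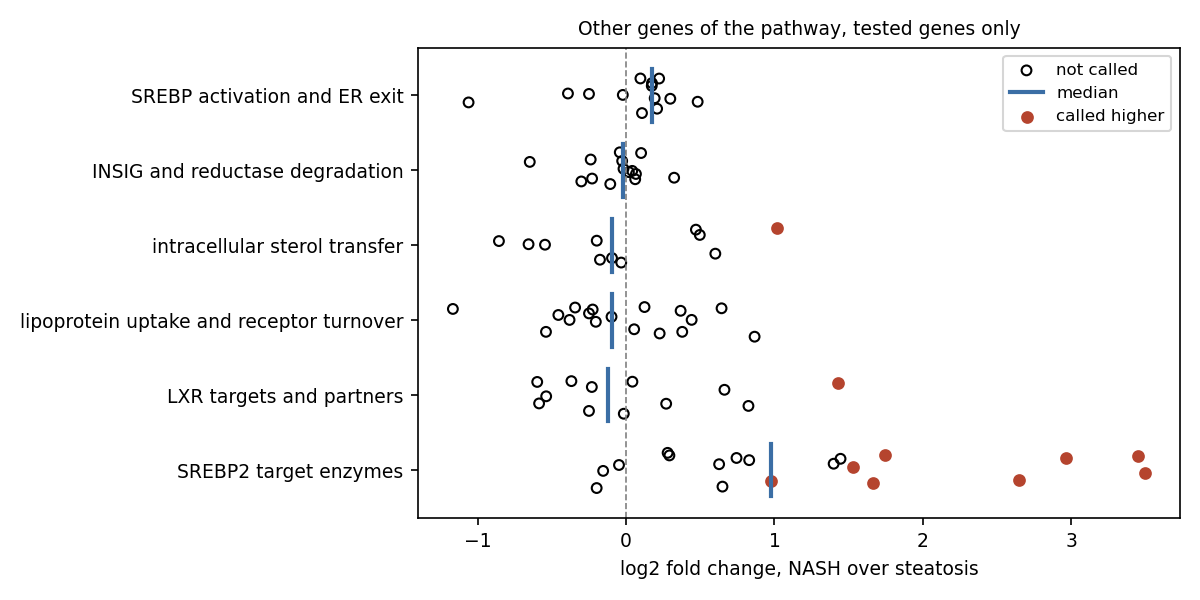
Log2 fold changes, NASH over steatosis, of the tested genes of each list, with called genes filled and the list's median as a bar. The medians of the 5 regulatory lists lie between -0.12 and 0.17, and that of the target enzymes at 0.97.

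The genes with the profile most like each member were found by the Pearson correlation of log2 CPM over the 6 libraries. The candidates were 8038 other genes with a symbol whose log2 CPM averaged 1 or more, leaving out predicted and clone-named genes. The points share their libraries and depth and fall into 2 groups, so the values describe these libraries. For Insig1 they were Sap130, Abcb8 and Aspdh (r = 0.995, 0.987 and 0.987). For Srebf2 they were Tbc1d10a, Pea15a and Pot1b (r = 0.991, 0.987 and 0.986). Stard4 was most like Dgkz, Wipi1 and Gtf3c4 (r = 0.998, 0.982 and 0.981), and Scap most like Casp4, Clec1b and Ddx3x (r = 0.995, 0.960 and 0.934). Insig2 was closest to Stt3b, Fah and Rnps1 (r = 0.977, 0.972 and 0.968), and Mylip to Zfp36l1, Zfp24 and Hikeshi (r = 0.987, 0.966 and 0.964). Among the members themselves, r was highest for Srebf2 with Insig1 (0.83), Insig2 with Mylip (0.69) and Insig1 with Stard4 (0.60). For the paralogs Insig1 and Insig2 it was 0.28.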

How the data were processed

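Liver RNA was sequenced as 6 libraries of polyadenylated transcripts with paired reads of 150 bp, per the labels' protocols. Per the submitters' processing notes, the tools included HTSeq and TopHat2, with no version named, and the build was mm10 (GRCm38). For the annotation release, strand setting and treatment of shared reads, the entry is: not given in the sources used here. Each deposited table holds whole-number counts per gene, and the authors left them without normalization. Symbols, coordinates and exon lengths came from GENCODE M21 (GRCm38), in which 1572 of the 39179 gene IDs had no symbol.

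Counts were analysed in R 4.3.3. The default filter of edgeR 4.0.16 left 11375 genes. TMM factors ranged from 0.79 to 0.91 in NASH and from 0.96 to 1.5 in steatosis. The difference of NASH from steatosis was tested by quasi-likelihood in edgeR, in a model with no covariate, with Benjamini-Hochberg adjustment over all tested genes. Each SE is the absolute log2 fold change divided by the root of F, and 95% intervals follow from it, both approximations. Alternatives were DESeq2 1.42.0, voom of limma 3.58.1, other scalings and filters, the replicate number as a block, and each library left out. Libraries of a group differed beyond sampling noise (the lowest chi-square over its degrees of freedom was 34.0).

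The members, lists and tests were chosen with earlier results of these data known. Named genes were the members, Srebf1, called genes of the regulatory lists (or the 2 with the smallest p), 4 target enzymes and, for each member, the 3 genes most like it. Mbtps1, Mbtps2, Gramd1a, Stard5, Abca1, Abcg5, Abcg8 and Nr1h3 were named beyond that rule for their roles, after their values were seen. Pltp, Abcg1, Smpdl3a and Lpcat3 were named beyond it for their values. Some tested genes of the pathway are not reported here.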

Additional observations from a re-analysis of the deposited data

How the results depend on the processing

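Of the members, Insig1 stayed higher in NASH in all 16 alternative fits, with log2 fold changes of 1.604 to 1.98, and was called in 14 of them. It was not called in the 4 libraries with few rRNA-like reads (1.91) or in 1 of the fits with a library left out, which ranged from 1.604 to 1.98. Srebf2 stayed above 0 and uncalled in all 16, at 0.41 to 0.74. Stard4 was positive in all 16, passed by DESeq2 (1.03), with no filter (0.98) and without NASH 2, and ranged from 0.84 to 1.30 with a library left out. The sign of members near 0 was not stable. Scap was -0.0782 in the 4 libraries and -0.0023 to 0.16 with a library left out. Insig2 was 0.0405 by limma-voom, 0.0073 with the replicate block and -0.56 to 0.58 with a library left out, and Mylip was -0.43 to 0.12 with a library left out. The difference in the log2 ratio of Insig1 to Insig2 stayed between 1.32 and 2.17, and that of both Insig genes to Scap between 0.64 and 1.21. With same-numbered libraries taken as pairs, both ratios had p = 0.25 by an exact sign-flip test of the paired differences. That is the smallest that 3 pairs allow, and the labels do not state such pairs.

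Over all genes, DESeq2 called 316 higher. No filter gave 535 higher and 912 lower, the 4 libraries 17 and 19, and leaving a library out 29 to 170 higher and 77 to 298 lower, against 169 and 379. Scaled to the counts of genes other than mitochondrial and rRNA-like ones without TMM, 179 were higher and 222 lower, and the median over all genes moved to a log2 fold change of 0.12, with Insig1 then at 1.89. Of the regulatory lists, 4 genes were called higher and 3 lower with no filter, 0 higher in the 4 libraries, 1 lower by DESeq2 and 1 lower with the replicate block, and with a library left out 0 to 1 in each direction. Of the target enzymes 3 were called in the 4 libraries and 5 to 7 with a library left out. The cause of these changes was not tested, and fits with fewer libraries have less power by construction. The labels give same-numbered libraries nothing in common but the number. Their deviations from the group means correlated at 0.03, -0.01 and 0.07, which with 3 libraries a group cannot exclude a shared batch. The block changed no call among the members. Counts were lowest for Srebf2 (84 to 198 a library), Stard4 (67 to 174) and Mylip (31 to 122), and the part of depth in the width of their intervals was not tested.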
